A study of Mus musculus with 12 samples.

Results

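The response of wild-type plantaris to exercise was taken from 6 arrays, 3 of sedentary and 3 of exercised wild-type mice, out of 12 arrays in the series. The arrays were assigned to the groups by their labels, and the effect of exercise is the mean of the exercised arrays minus the mean of the sedentary arrays, on the log2 scale. It was computed for the 22180 genes that the array's annotation pairs with a transcript cluster (a set of probes for the exons of 1 gene) carrying 1 gene symbol. Of these genes, 13747 were tested, those with at least 3 arrays above 4.56, the median of all values deposited.

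All mice were males aged 12 weeks on chow, went without food for 3 hours and were anesthetized with isoflurane when the muscle was taken. In the exercised mice this was 1 hour after the end of exercise. The other 6 arrays came from REDD1 knockout mice, 3 sedentary and 3 exercised, and serve here for the estimate of each gene's spread and for a short comparison at the end. The labels give each array as the plantaris of a mouse and name no pooling, litter, batch, hour of sampling, or kind and length of exercise, so a shared cage or day cannot be seen. Replicate numbers follow the order of the samples and pair nothing.

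The plantaris lies in the calf and consists largely of fast fibres, which rely much on glycogen. Contraction raises calcium, cyclic AMP and AMP levels in the fibre, and exercise also raises stress hormones in blood. Within minutes to hours these signals switch on early-response genes, many of them encoding transcription factors, and then genes for fuel use, mitochondria and vessel growth. A whole muscle also holds vessels, nerve, connective tissue and immune cells, so an array value adds up all of them. In such a sample fewer cells of a type and less RNA per cell cannot be told apart.

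The tissue label fitted the markers. All 16 fast-fibre contractile genes examined were above the table median on every wild-type array, with a lowest level of 9.19 for any of them. The 13 slow-fibre genes were above it too (lowest 5.11), so this alone does not tell a fast muscle from a slow one. The median of the genes' lowest levels was 12.73 for fast-fibre and 6.14 for slow-fibre genes, although Mybpc1 of the latter lay between 12.2 and 12.5. Myh4, the myosin of the fastest fibres, lay between 13.28 and 13.47, and the actin gene Acta1 between 13.52 and 13.61. The genotype label was examined with Ddit4, which encodes REDD1. It lay between 5.83 and 9.05 in wild-type arrays and between 5.08 and 6.77 in knockout arrays, and in each condition all knockout arrays were below all wild-type arrays. Pearson's r between wild-type arrays, across transcript clusters, was between 0.967 and 0.985.

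Exercise changed 78 genes, 0.567% of the 13747 tested (limma, Benjamini-Hochberg adjusted p under 0.05, called below). Of these, 65 rose (0.473%) and 13 fell (0.0946%). The counts of called list members below are to be read beside these shares. The rises were larger: their median fold was 1.98, against 1.64 for the falls, and 31 rises but 3 falls reached 2-fold (34 genes, 0.247% of those tested). The smallest called change was 1.40-fold, and the median standard error (SE) of a log2 fold change was 0.13 over all genes tested. All 78 called genes had groups without overlap, which their choice makes likely and which supports nothing further. Among all genes tested, the exercised arrays lay above the sedentary ones without overlap for 791 genes (5.75%) and below them for 981 (7.14%). At an unadjusted p under 0.05, 1128 genes passed (8.21%), of which 543 were higher (3.95%) and 585 lower (4.26%), so rises outnumbered falls among the called genes but not at this looser threshold. Groups of 3 cannot reach a p below 0.10 in an exact permutation test of 1 gene, so the calls rest on the fit across all genes.

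**Figure D1:**
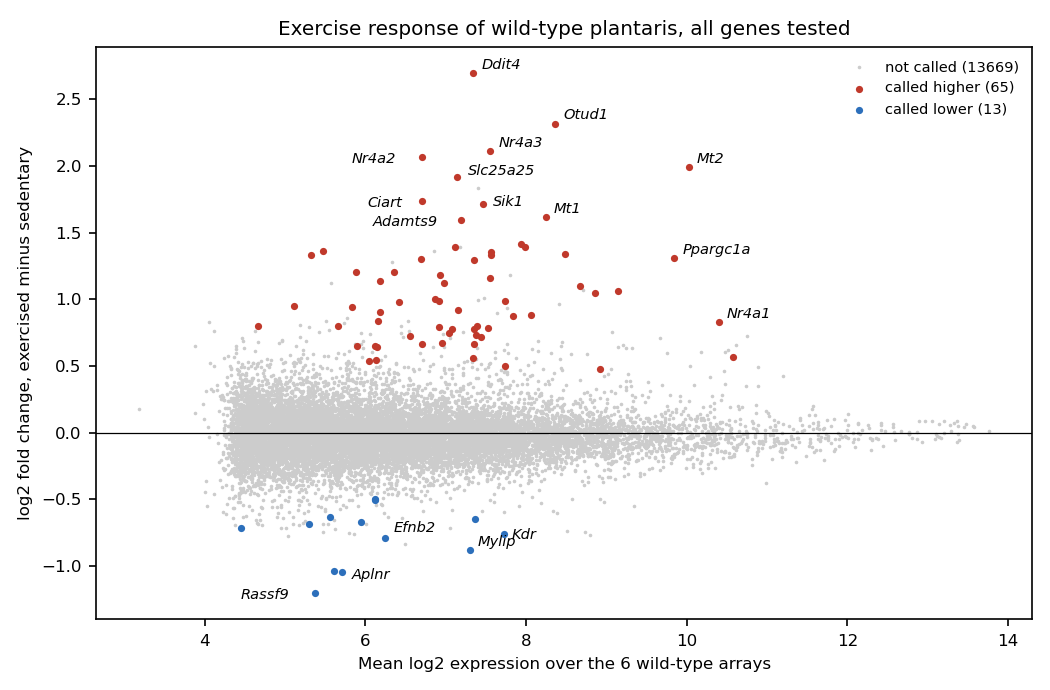
Each point is 1 of the 13747 genes tested, with its mean log2 expression over the 6 wild-type arrays on the horizontal axis and its log2 fold change (exercised minus sedentary) on the vertical axis. The 65 called rises (red) reach 2.70, the 13 called falls (blue) reach -1.20, and the most abundant genes lie close to 0.

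The number of calls varied with the arrays fitted. Of the 65 rises, 29 were highest on exercised replicate 1, 15 on replicate 2 and 21 on replicate 3. Without exercised replicate 1, 56 genes were called, 51 of them among the 78. In fits that left out each of the 12 arrays in turn, 38 of the 78 genes were called every time, 33 rises and 5 falls. Without sedentary replicate 1 the count was 46, and it was also 46 without exercised replicate 3. For the genes below, a call that was lost in such a fit is given with the range of its values.

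Ddit4 had the largest rise of all genes tested. REDD1, its product, restrains mTORC1, a kinase complex that promotes protein synthesis and growth, and is induced by low energy, low oxygen and glucocorticoids. Its log2 level was 6.13, 5.83 and 6.02 in the sedentary arrays and 9.05, 8.40 and 8.62 in the exercised arrays. Every exercised array was thus more than 2 log2 units above every sedentary one. The rise was 6.49-fold (log2 fold change 2.70, SE 0.22, n = 3 per group, limma adjusted p = 4.73e-05). The other tested genes of this pathway were not called. Of 43 tested members of a list of mTORC1 subunits, regulators and targets, 1 was called, Ddit4 itself (0.473% of all genes rose). Of the 43, 17 were positive (45.0% of all genes), and the median was -0.04, against -0.02 over all genes tested. Mtor had an adjusted p of 0.972 and Tsc2 one of 0.95. Ddit4l, the paralog of Ddit4 that is abundant in muscle, was at 9.47, 8.88 and 9.15 in sedentary arrays and at 8.43, 9.09 and 8.51 in exercised arrays, which overlap (-0.49, SE 0.16, adjusted p = 0.324).

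The NR4A genes encode orphan nuclear receptors that are switched on within an hour by calcium and cyclic AMP, partly through the factor CREB, and in muscle they act on glucose and fat use. All 3 rose. Nr4a3 was at 6.34, 6.48 and 6.66 in sedentary arrays and at 8.56, 8.51 and 8.75 in exercised arrays, a tight gap in both groups (2.11, SE 0.40, limma adjusted p = 0.0231). Nr4a2 was at 5.77, 5.42 and 5.85 in sedentary arrays and at 8.54, 6.43 and 8.26 in exercised arrays. Its exercised replicate 2 lay close to the sedentary arrays, and the mean rise was 2.07 (SE 0.40, adjusted p = 0.0244). Nr4a1 was at 9.70, 10.12 and 10.14 in sedentary arrays and at 10.91, 10.69 and 10.84 in exercised arrays (0.83, SE 0.14, adjusted p = 0.0101). The NR4A calls were not kept in every fit with 1 array left out. Nr4a3 was not called when any 1 of the 6 wild-type arrays was left out. Its change stayed between 2.04 and 2.19, with limma adjusted p from 9.62e-05 to 0.122 over the 12 fits. The SE of 0.40 draws on the spread of all 12 arrays, while the SD of Nr4a3 was 0.16 in sedentary and 0.13 in exercised wild-type arrays. In a fit of only the 6 wild-type arrays Nr4a3 and Nr4a1 were called and Nr4a2 was not. Nr4a2 lost its call without any 1 wild-type array other than exercised replicate 2 (1.67 to 2.73, up to 0.138), and Nr4a1 without sedentary replicate 1 or exercised replicate 1 or 3 (0.69 to 0.90, up to 0.0741). These were the 3 calls among 24 tested nuclear receptor genes (0.473% of all genes rose). The other 21 held no call, and the list's median was 0.01. Among them Ppard had an adjusted p of 0.781 and Esrra one of 0.986.

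The promoters of these genes are shown because all 3 hold several copies of the core of the cyclic AMP response element, the site that CREB binds. Sequences are from RefSeq on GRCm38.p6, 5′ to 3′ on the gene's strand, and capitals mark TGACG or its reverse complement CGTCA. For Nr4a1 the whole window of 250 bases before the start is printed (chr15:101266596-101266845, plus strand). For Nr4a2 the bases from 220 to 90 before the start are printed (chr2:57124093-57124223, minus strand), and for Nr4a3 those from 250 to 130 before it (chr4:48045055-48045175, plus strand). Each stretch holds 4 matches.
Nr4a1: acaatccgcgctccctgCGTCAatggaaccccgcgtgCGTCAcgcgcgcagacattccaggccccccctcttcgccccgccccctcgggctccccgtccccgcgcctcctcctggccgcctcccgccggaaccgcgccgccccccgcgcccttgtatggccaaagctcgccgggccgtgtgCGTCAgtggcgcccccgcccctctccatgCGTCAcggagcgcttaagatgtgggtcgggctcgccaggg
Nr4a2: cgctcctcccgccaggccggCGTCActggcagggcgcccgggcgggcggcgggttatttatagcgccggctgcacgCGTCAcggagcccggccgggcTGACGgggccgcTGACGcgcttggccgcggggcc
Nr4a3: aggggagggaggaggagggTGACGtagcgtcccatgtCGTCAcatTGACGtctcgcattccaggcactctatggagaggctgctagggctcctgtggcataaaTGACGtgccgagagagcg

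Genes for mitochondria and fuel handling that respond to calcium and cyclic AMP rose as single genes, not as whole pathways. Ppargc1a, the coactivator PGC-1α that drives mitochondrial biogenesis, was at 9.33, 8.98 and 9.24 in sedentary arrays and at 10.15, 10.46 and 10.88 in exercised arrays. It rose by 1.31 (SE 0.20, limma adjusted p = 0.00429), with the largest value on exercised replicate 3 rather than 1. Slc25a25, a calcium-regulated carrier of ATP-magnesium and phosphate in the inner mitochondrial membrane, was at 5.55, 6.40 and 6.59 in sedentary arrays and at 8.02, 8.28 and 8.01 in exercised arrays. Its exercised arrays agreed closely, while sedentary replicate 1 was low, and it rose by 1.92 (SE 0.25, adjusted p = 0.00142). Coq10b, which handles coenzyme Q, was named after its values were seen. It was at 6.34, 6.88 and 6.89 in sedentary arrays and at 8.17, 7.80 and 8.04 in exercised arrays (1.30, SE 0.16, adjusted p = 0.000959). The rest of the PGC-1 and mitochondrial biogenesis list did not pass. Of 25 tested members 2 were called (0.473% of all genes rose), and the median was -0.02, the same as over all genes. Ppargc1b, its relative PGC-1β, was at -0.33 (SE 0.18, adjusted p = 0.716). Of the 72 respiratory chain and ATP synthase subunits tested, 0 were called by limma and the median was 0.02. At an unadjusted p under 0.05, 1 was lower (4.26% of all genes).

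These 3 genes also hold the response element core near a start, as do 24.9% of the promoters of all genes tested. Slc25a25 has several promoters, and that shown holds the full palindrome TGACGTCA, found in 2.32% of the promoters of all genes tested. Its other promoters hold neither the palindrome nor the core. Shown are the bases from 180 to 100 before that start of Slc25a25 (chr2:32424166-32424246, minus strand). For Ppargc1a the bases from 80 to 1 before the start are shown (chr5:51567726-51567805, minus strand). For Coq10b those from 190 to 30 before it are shown (chr1:55052580-55052740, plus strand). Capitals mark the palindrome in Slc25a25 and the core in the others, with 1 match in Ppargc1a and 4 in Coq10b.
Slc25a25: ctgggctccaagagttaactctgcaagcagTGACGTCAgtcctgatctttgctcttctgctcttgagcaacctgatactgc
Ppargc1a: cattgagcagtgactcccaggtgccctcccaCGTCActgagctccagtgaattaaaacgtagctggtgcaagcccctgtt
Coq10b: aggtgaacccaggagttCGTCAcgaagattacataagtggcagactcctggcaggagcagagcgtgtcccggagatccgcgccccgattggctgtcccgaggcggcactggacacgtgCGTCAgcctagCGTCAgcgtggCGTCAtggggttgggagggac

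Sik1 encodes a salt-inducible kinase that is itself induced by CREB and holds back CREB's coactivators. It was at 6.5, 6.51 and 6.80 in sedentary arrays and at 8.33, 8.14 and 8.48 in exercised arrays. All exercised arrays were more than 1 log2 unit above all sedentary ones (1.72, SE 0.15, limma adjusted p = 6.96e-05). It was the only called member among 33 tested genes of calcium, cyclic AMP and CREB signalling, whose median was -0.00. Crem, another CREB target, was at 5.06, 5.02 and 5.09 in sedentary and 5.51, 5.46 and 5.41 in exercised arrays, without overlap but not called (0.40, SE 0.11, adjusted p = 0.151). Rcan1, a target of calcineurin, was at 8.35, 8.89 and 9.25 against 9.60, 9.35 and 9.47 (0.65, adjusted p = 0.529).

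In insulin signalling, 2 of 23 tested genes were called, both higher (0.473% of all genes rose). Of the list 7 were positive (45.0% of all genes), and its median was -0.15. Irs2, an insulin receptor substrate, was at 7.07, 7.15 and 7.46 in sedentary arrays and at 8.87, 8.52 and 8.53 in exercised arrays. It rose 2.67-fold (1.41, SE 0.14, limma adjusted p = 0.000147). Its relative Irs1 had an adjusted p of 0.958. Foxo1, a transcription factor that insulin keeps out of the nucleus, was at 7.41, 6.88 and 7.43 in sedentary arrays and at 8.11, 8.07 and 8.51 in exercised arrays (0.99, SE 0.17, adjusted p = 0.01). The call of Foxo1 was lost without sedentary replicate 2 or exercised replicate 3 (0.81 to 1.08, adjusted p up to 0.071). A further, dimmer cluster of Foxo1 changed by 0.03 only, and with the mean of its clusters the gene was not called (0.51, adjusted p = 0.121).

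Among 36 tested genes of glucose uptake, glycogen and fuel switching, 1 was called, Arrdc3, an arrestin-like protein linked to energy balance (8.15, 8.17 and 8.66 against 9.46, 9.14 and 9.54; 1.05, SE 0.13, limma adjusted p = 0.00142). Hk2, the hexokinase that traps glucose in muscle, was at 9.88, 9.76 and 9.999 in sedentary arrays and at 10.48, 10.38 and 10.59 in exercised arrays. These groups were well apart, yet Hk2 did not pass (0.60, SE 0.14, adjusted p = 0.0739). Ppp1r3c, which targets a phosphatase to glycogen, was at 0.72 (SE 0.25, adjusted p = 0.375), and Pdk4, the kinase that shuts pyruvate dehydrogenase, at 0.10 with overlapping groups (adjusted p = 0.952). Pfkfb3, a regulator of glycolysis, was at 9.47, 9.36 and 8.72 against 8.55, 8.83 and 7.88, also with overlap (-0.76, SE 0.22, adjusted p = 0.226). Transport was represented by Slc7a8, a carrier of neutral amino acids, at 6.88, 6.63 and 7.18 against 7.79, 8.36 and 8.53 (1.33, SE 0.19, adjusted p = 0.00264). Pdxk, the kinase that activates vitamin B6, was at 6.09, 5.87 and 6.17 against 7.27, 7.04 and 7.72 (1.30, SE 0.17, adjusted p = 0.00142).

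The AP-1 and ATF factors are the classical early-response genes, whose mRNA rises and decays within an hour or so of a stimulus. The list moved up, but mainly on 1 array. Of 12 tested members 2 were called (0.473% of all genes rose), 11 were positive (45.0% of all genes) and 9 had exercised arrays above all sedentary ones (5.75% of all genes), with a median of 0.75. Averaged over its members, the list lay at -0.34, -0.41 and -0.32 in sedentary arrays and at 0.87, 0.04 and 0.16 in exercised arrays, relative to the mean of the 6 arrays. Exercised replicate 1 held the highest value of 10 of the 12 genes, and without it the median was 0.43.

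The called members were Fosl2 and Junb, partners in AP-1 dimers. Fosl2 was at 7.04, 6.68 and 6.94 in sedentary arrays and at 8.67, 7.78 and 8.28 in exercised arrays (1.36, SE 0.18, limma adjusted p = 0.00155), so all exercised arrays were raised. Junb was at 5.81, 5.99 and 5.99 against 7.41, 6.36 and 6.97 (0.98, SE 0.20, adjusted p = 0.041), and its call was lost in 9 of the 12 fits with 1 array left out (0.73 to 1.26, up to 0.192). These were the fits without any wild-type array other than exercised replicate 2, without knockout sedentary replicate 1 or 2, and without knockout exercised replicate 2 or 3.

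The best known members did not pass. Fos was at 4.98, 4.94 and 5.11 in sedentary arrays and at 7.55, 5.35 and 5.49 in exercised arrays. Exercised replicates 2 and 3 thus stood little above the sedentary arrays, and the mean difference of 1.12 (SE 0.44, limma adjusted p = 0.471) fell to 0.42 without exercised replicate 1. Atf3, a stress-induced repressor, was at 6.52, 6.90 and 6.96 against 10.06, 7.58 and 7.97 (1.74, SE 0.45, adjusted p = 0.135; 0.98 without that array). Fosb showed the same order with 6.32 on exercised replicate 1 (0.81, adjusted p = 0.356; 0.44 without it). Btg2, a growth-arrest gene, was at 6.49, 6.82 and 6.13 against 9.66, 7.28 and 8.01 (1.84, SE 0.41, adjusted p = 0.0683; 1.17 without it). Egr1, a zinc-finger factor usually induced with Fos, was at -0.13 (adjusted p = 0.952), and at -0.49 without exercised replicate 1.

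**Figure D2:**
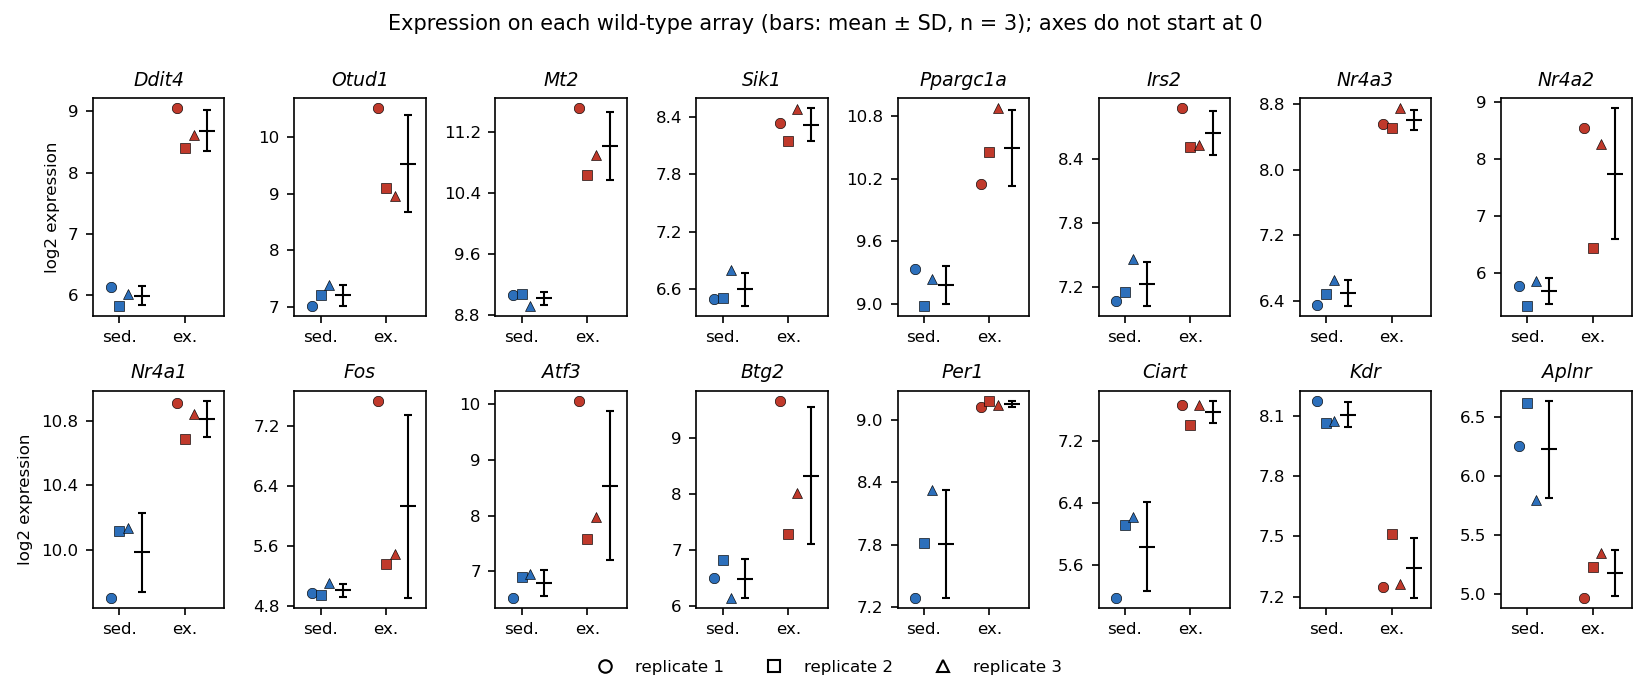
Log2 expression of 16 genes on each of the 6 wild-type arrays, with sedentary arrays in blue, exercised arrays in red, a symbol per replicate and black bars for the mean ± SD (n = 3). The groups do not overlap in any of the 16 genes, and in Fos (7.55) and Atf3 (10.06) exercised replicate 1 lies far above the other exercised arrays.

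**Figure D3:**
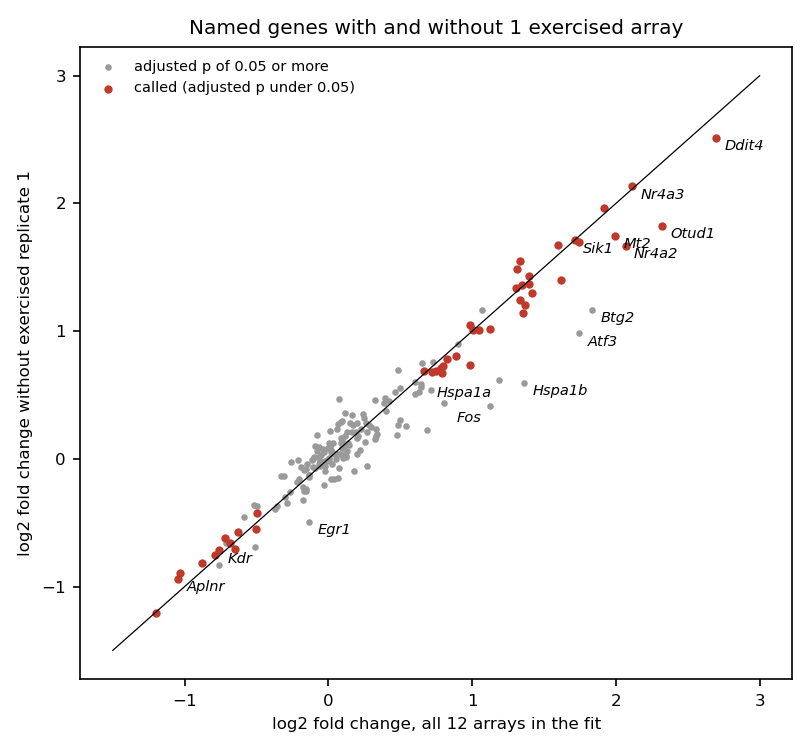
Log2 fold change of each named gene in the fit of all 12 arrays (horizontal axis) and in the fit without exercised replicate 1 (vertical axis), with called genes in red and a line of equal values. Sik1 and Kdr lie near the line, the called genes Otud1 (2.32 and 1.83) and Nr4a2 (2.07 and 1.67) lie below it, and Fos (1.12 and 0.42), Atf3 (1.74 and 0.98) and Hspa1b (1.36 and 0.59) lie further below.

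Some lists of markers of other cells were also highest on exercised replicate 1 in their mean level. The Schwann cell and nerve markers lay at -0.11, -0.24 and -0.30 in sedentary arrays and at 0.87, -0.30 and 0.08 in exercised arrays, with the highest value of all 9 tested markers on exercised replicate 1. Their median was 0.43, and 0.13 without that array, and limma called 0 of 9, with 0 at an unadjusted p under 0.05. Pmp22, a myelin protein gene, was at 8.33, 8.17 and 7.81 against 9.70, 7.89 and 8.77. Nefl and Nefm of this list were too dim to be tested, with no wild-type array above 3.68. The mean of the smooth muscle and pericyte markers was also highest there, at 0.21. It was -0.11 and -0.09 in the other exercised arrays and -0.09 to 0.08 in sedentary arrays. Only a part of that list was highest there, 4 of 12 tested genes, and Rgs5 was lowest there, at 10.83. Cnn1 of that list, chosen after its values were seen, was at 7.36 on exercised replicate 1 and at 5.94 or less on the other arrays. The mean of the adipocyte markers was highest there as well, at 0.25, with 3 of 8 tested genes highest on that array. It was 0.06 and -0.05 in the other exercised arrays and -0.31 to 0.16 in sedentary arrays. The part of these markers in the early-gene values of that array was not tested. The fast-fibre contractile genes differed by no such amount, at -0.04 on that array and between -0.04 and 0.05 on the others. Of 14 tested fibroblast and matrix markers, 10 were highest on exercised replicate 2 and 3 on exercised replicate 1.

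**Figure D4:**
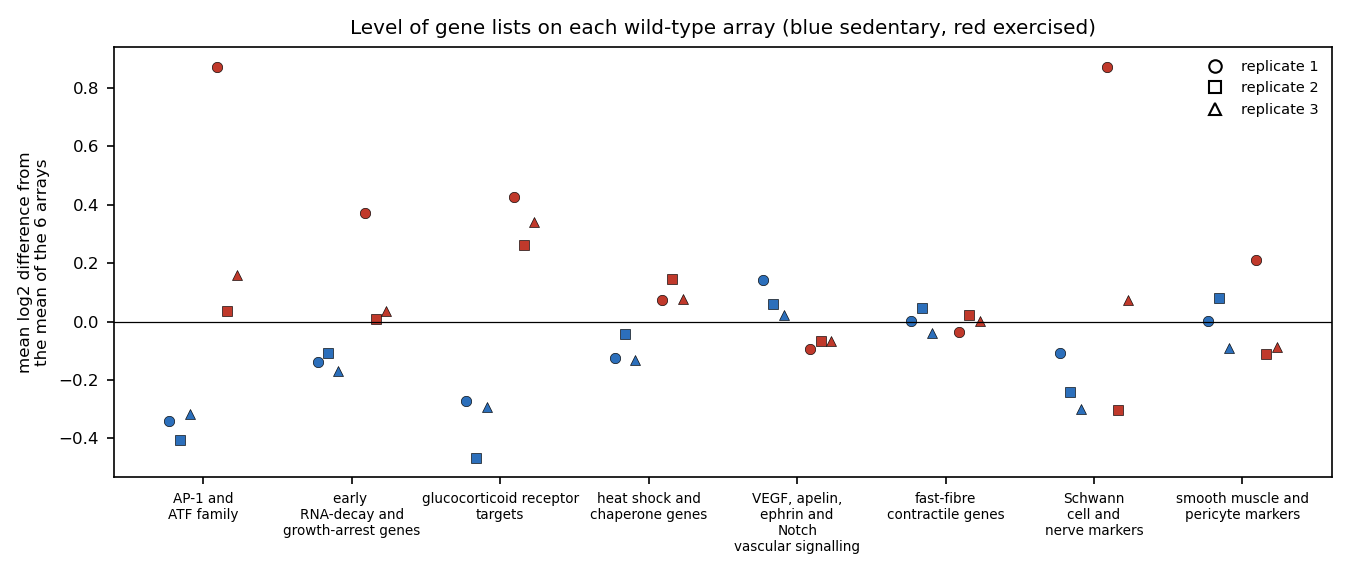
Mean log2 difference of 8 gene lists from the mean of the 6 wild-type arrays, with 1 symbol per array (blue sedentary, red exercised). The glucocorticoid receptor targets are raised on all 3 exercised arrays (0.26 to 0.42), while the AP-1 and the Schwann cell lists each reach 0.87 on exercised replicate 1.

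Other early transcription factors gave 3 calls among 22 tested genes (0.473% of all genes rose), with a median of 0.18. Csrnp1, a nuclear protein of the early response, was at 4.39, 5.08 and 4.90 in sedentary arrays and at 6.47, 5.99 and 6.0 in exercised arrays (1.37, SE 0.20, limma adjusted p = 0.00317). Klf4, a zinc-finger factor, was at 6.5, 6.25 and 6.5 against 7.76, 7.29 and 7.58 (1.12, SE 0.14, adjusted p = 0.00142), and every exercised array was raised. Nfil3, a basic leucine zipper repressor, was at 6.97, 6.30 and 6.73 against 7.54, 7.37 and 7.33 (0.75, SE 0.16, adjusted p = 0.0484). Its call was lost in 9 of the 12 fits (0.57 to 0.90, up to 0.196), the exceptions being those without sedentary replicate 1, knockout sedentary replicate 3 or knockout exercised replicate 1. The early RNA-decay and growth-arrest list held 1 call among 17 tested genes (median 0.19), and the MAP kinase phosphatases and Sprouty inhibitors held 1 among 17 (median -0.10), against 0.473% of all genes that rose. Zfp36 of the former, which speeds the decay of cytokine mRNA, was at 6.88, 6.71 and 6.49 against 7.61, 7.70 and 7.11 (0.78, adjusted p = 0.0221). Errfi1 of the latter, an inhibitor of the EGF receptor, was at 7.14, 7.0 and 7.26 against 8.15, 8.05 and 7.56 (0.79, adjusted p = 0.0203). Zfp36 was not called without sedentary replicate 2 or 3 or exercised replicate 1 or 2 (0.67 to 0.96, up to 0.111), and Errfi1 not without replicate 1 or 2 of either group (0.67 to 0.97, up to 0.122). The phosphatase gene Dusp1 had an adjusted p of 0.865.

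Targets of the glucocorticoid receptor, which is activated by corticosterone in mice, held more called genes than any other of the 40 lists, although the median of the AP-1 and ATF list was larger (0.75). Of 29 tested members 8 were called, all higher (0.473% of all genes rose), 27 were positive (45.0% of all genes) and 16 had exercised arrays above all sedentary ones (5.75% of all genes). The median was 0.60, against -0.02 over all genes tested. Its level was raised on all exercised arrays, at 0.42, 0.26 and 0.34, against -0.27, -0.47 and -0.29 in sedentary arrays. The level of the AP-1 list was raised on all exercised arrays too, but less evenly (0.87, 0.04 and 0.16). Without exercised replicate 1 the median of the glucocorticoid receptor targets was 0.51. The called members were Ddit4, Mt2, Mt1, Per1, Cebpd, Foxo1, Cebpb and Errfi1. Several of them also answer to cyclic AMP, metals or insulin, and Ddit4, Per1, Mt1, Mt2, Foxo1 and Errfi1 belong to other lists as well.

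Cebpd and Cebpb encode leucine zipper factors of stress and hormone responses. Cebpd was at 5.05, 4.56 and 4.37 in sedentary arrays and at 6.18, 5.81 and 6.0 in exercised arrays (1.34, SE 0.18, limma adjusted p = 0.00142). Cebpb was at 7.06, 7.0 and 6.92 against 7.93, 7.70 and 7.74, a smaller but very even rise (0.80, SE 0.13, adjusted p = 0.00934). Other well known targets were higher without overlap and missed the threshold. Tsc22d3, which encodes the leucine zipper protein GILZ, was at 7.37, 7.14 and 7.42 against 8.10, 7.89 and 7.75 (0.60, SE 0.13, adjusted p = 0.0574). Sgk1, a hormone-induced kinase, was at 7.80, 8.01 and 8.72 against 9.06, 9.26 and 9.42 (1.07, SE 0.26, adjusted p = 0.112). Fkbp5, a chaperone of the receptor, was at 7.30, 6.65 and 7.64 against 8.10, 8.12 and 8.07 (0.90, SE 0.23, adjusted p = 0.13). In Sgk1 and Fkbp5 the sedentary arrays were more spread out than the exercised ones.

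Metallothioneins are small proteins that bind zinc and copper, and their genes respond to metals and to glucocorticoids. Mt2 was at 9.06, 9.09 and 8.93 in sedentary arrays and at 11.52, 10.64 and 10.90 in exercised arrays. It rose 3.99-fold (2.00, SE 0.18, limma adjusted p = 6.96e-05), and the lowest exercised array was more than 1.5 log2 units above the highest sedentary one. Mt1, its neighbour on the chromosome, was at 7.57, 7.38 and 7.36 against 9.49, 8.49 and 9.18 (1.62, SE 0.21, adjusted p = 0.00142). The order of the exercised arrays was the same in both genes, with replicate 1 highest and replicate 2 lowest. Slc39a14, a zinc importer, was at 6.21, 6.25 and 6.65 against 7.35, 7.46 and 7.31 (1.0, SE 0.13, adjusted p = 0.00155). These were the 3 calls among 18 tested genes of zinc handling (0.473% of all genes rose), whose median was 0.02. Mt3 was not called (0.48, adjusted p = 0.571) and Mtf1, the metal-sensing factor, had an adjusted p of 0.911.

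The metallothionein promoters are shown for their metal response elements, searched as TGCACNC or TGCGCNC. In 250 bases, 29.2% of the promoters of all genes tested hold at least 1 such match. Mt2 holds 3 matches in the bases from 250 to 30 before its start (chr8:94172368-94172588, plus strand). Mt1 holds 1 in the last 120 bases (chr8:94178969-94179088, plus strand), together with a match to the palindromic glucocorticoid response element. Capitals mark these matches.
Mt2: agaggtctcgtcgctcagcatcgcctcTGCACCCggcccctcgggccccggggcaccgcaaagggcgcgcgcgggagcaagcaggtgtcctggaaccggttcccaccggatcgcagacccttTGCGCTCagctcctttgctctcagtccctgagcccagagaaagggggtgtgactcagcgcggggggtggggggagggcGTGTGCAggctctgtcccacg
Mt1: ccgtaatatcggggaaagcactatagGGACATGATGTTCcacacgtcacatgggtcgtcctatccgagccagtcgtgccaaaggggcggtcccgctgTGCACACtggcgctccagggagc

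The circadian clock is a loop in which CLOCK and BMAL1 (gene Arntl) switch on Per, Cry and other repressor genes through E-boxes. Glucocorticoids and CREB also act on Per1 directly. Of 18 tested clock genes 3 rose (0.473% of all genes), Per1, Ciart and Nfil3. The call of Nfil3 was lost in 9 of the 12 fits with 1 array left out. Of the 18, 7 were positive (45.0% of all genes), and the median was -0.08. Per1 was at 7.29, 7.81 and 8.33 in sedentary arrays and at 9.13, 9.19 and 9.15 in exercised arrays (1.34, SE 0.18, limma adjusted p = 0.00142). Ciart, a repressor of CLOCK and BMAL1, was at 5.17, 6.11 and 6.22 against 7.66, 7.40 and 7.66 (1.74, SE 0.24, adjusted p = 0.00183). In both genes the exercised arrays were nearly equal and the sedentary arrays were spread out, with replicate 1 lowest.

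Sedentary replicate 1 stood apart in other clock genes too. Arntl was at 8.09, 7.22 and 6.91 in sedentary arrays and at 6.60, 6.52 and 6.98 in exercised arrays (-0.71, SE 0.32, limma adjusted p = 0.595). Nr1d1, a repressor of Arntl, was at 9.70, 9.11 and 8.87 against 8.39, 8.91 and 8.83 (-0.52, adjusted p = 0.606), and Dbp, a clock output gene, at 7.96, 8.91 and 9.27 against 8.77, 9.41 and 8.94 (0.33, adjusted p = 0.883). That array thus had the highest Arntl and Nr1d1 and the lowest Dbp, Per1 and Ciart of the 6. The hour at which each muscle was taken is not given, and its part in these values was not tested. Leaving out 1 array at a time, the change of Per1 stayed between 1.08 and 1.6 and that of Ciart between 1.41 and 1.93, and both were called in all 12 fits.

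Ciart is shown for its E-boxes. The 140 bases before its start (chr3:95882229-95882368, minus strand) hold CACGTG 3 times, marked by capitals, while 8.05% of the promoters of all genes tested hold it at all in 250 bases.
Ciart: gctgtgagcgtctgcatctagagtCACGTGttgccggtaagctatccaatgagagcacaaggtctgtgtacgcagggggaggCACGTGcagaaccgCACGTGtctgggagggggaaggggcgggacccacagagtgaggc

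Protein quality control was touched at a few points. Otud1, a deubiquitinase, had the largest rise after Ddit4. It was at 7.02, 7.21 and 7.39 in sedentary arrays and at 10.51, 9.10 and 8.96 in exercised arrays (2.32, SE 0.33, limma adjusted p = 0.0021). Exercised replicate 1 was highest by far, and without it the rise was 1.83 and still called. Otud1 was the 1 call among 32 tested ubiquitin ligase and deubiquitinase genes, whose median was -0.00. Trim63, the muscle ligase MuRF1, was at 9.59, 9.26 and 9.09 against 10.37, 9.64 and 10.06 (0.71, SE 0.23, adjusted p = 0.3). Fbxo32, the muscle ligase atrogin-1, was at 0.10 (adjusted p = 0.942).

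Among 29 tested genes of the responses to unfolded protein and amino acid shortage 1 was called, Impact, whose product holds back the kinase GCN2, which senses uncharged tRNA. It was at 7.42, 7.13 and 7.34 in sedentary arrays and at 8.75, 8.42 and 8.90 in exercised arrays (1.40, SE 0.13, limma adjusted p = 6.96e-05). The effector genes Atf4 and Ddit3 of that response were not called, although their groups did not overlap. Atf4 was slightly higher (0.13, SE 0.08, adjusted p = 0.748). Ddit3 was lower, at 6.46, 6.47 and 6.43 against 6.15, 6.12 and 6.20 (-0.30, SE 0.13, adjusted p = 0.541). Of 34 tested autophagy genes 1 was called, Trp53inp1, a stress protein induced by p53 (7.28, 6.90 and 7.05 against 7.88, 7.72 and 7.80; 0.72, adjusted p = 0.00934). It was not called without sedentary replicate 2 or exercised replicate 3 (0.64 to 0.82, up to 0.0695). With Ddit4 it made the 2 calls among 22 tested p53 targets (0.473% of all genes rose), whose median was 0.04.

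The heat shock and chaperone genes were mostly slightly higher, with 26 of 30 positive (45.0% of all genes) and a median of 0.13. Limma called 0 of the 30. At an unadjusted p under 0.05, 6 were higher (3.95% of all genes) and 0 lower (4.26%). Hspa1b, the inducible chaperone HSP70, was at 5.85, 6.34 and 6.34 in sedentary arrays and at 9.07, 6.81 and 6.73 in exercised arrays. As with Fos, exercised replicate 1 carried the difference of 1.36 (SE 0.42, adjusted p = 0.274), which was 0.59 without it. Hspa1a was at 1.18 and 0.62 in the same way (adjusted p = 0.258). Hspb1, a small heat shock protein, was at 0.33 (adjusted p = 0.576). The level of the list as a whole was raised on all exercised arrays by little, at 0.07, 0.15 and 0.08 against -0.12, -0.04 and -0.13.

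Vascular genes held 3 of the falls, more than any other list. In a list of 40 tested genes of VEGF, apelin, ephrin and Notch signalling, 3 fell and 0 rose by limma (0.0946% of all genes tested fell). At an unadjusted p under 0.05, 14 were lower (4.26% of all genes) and 3 higher (3.95%). Of the 40, 12 had exercised arrays below all sedentary ones (7.14% of all genes) and 2 above them (5.75%), and the median was -0.06. The list lay at 0.14, 0.06 and 0.02 in sedentary arrays and at -0.09, -0.07 and -0.07 in exercised arrays, so all sedentary arrays were above all exercised ones. All 3 fallen genes encode receptors or ligands on endothelial cells.

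Kdr encodes VEGFR2, the main receptor for VEGF. It was at 8.18, 8.07 and 8.07 in sedentary arrays and at 7.25, 7.51 and 7.27 in exercised arrays. It fell 1.70-fold (-0.76, SE 0.12, limma adjusted p = 0.00582) and was called in all 12 fits with 1 array left out. Aplnr, the receptor for apelin, was at 6.26, 6.62 and 5.80 against 4.97, 5.23 and 5.35, a fall to near the table median of 4.56 (-1.05, SE 0.18, adjusted p = 0.00955). Its call was lost without sedentary replicate 1 or exercised replicate 1 (-1.26 to -0.85, up to 0.0577). Efnb2, an ephrin ligand of arteries, was at 6.90, 6.57 and 6.46 against 5.77, 6.03 and 5.75 (-0.79, SE 0.14, adjusted p = 0.0101), and lost its call without sedentary replicate 1 or exercised replicate 1 or 3 (-0.88 to -0.66, up to 0.0731).

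Their ligands and partners did not pass. Vegfa, the ligand of Kdr, was at 0.06 (adjusted p = 0.966) and Flt1, its decoy receptor, had an adjusted p of 0.759. Apln was too dim to be tested, with no wild-type array above 4.35. The Notch ligand gene Dll4 was at 5.53, 5.59 and 5.27 against 5.30, 4.61 and 4.93 (-0.51, adjusted p = 0.356), and Hes1, a Notch target, at 6.66, 7.05 and 6.59 against 6.44, 6.39 and 6.36 (-0.37, adjusted p = 0.3). Genes higher after exercise were also on the list: Hey1, named after its values were seen, was at 0.44 (adjusted p = 0.35).

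Markers of endothelial cells were measured beside these genes. Of 13 tested, 1 was called, Kdr itself (0.0946% of all genes fell), 6 were positive (45.0% of all genes) and the median was -0.11. The marker list, which includes Kdr, lay between 0.02 and 0.10 in sedentary arrays and between -0.09 and -0.04 in exercised arrays. Pecam1 was at 8.30, 8.16 and 8.20 against 8.27, 8.13 and 8.39, a difference of 0.04 (SE 0.10, limma adjusted p = 0.959). Cdh5 was lower without overlap and not called, at 9.82, 9.65 and 9.53 against 9.38, 9.44 and 9.38 (-0.27, SE 0.09, adjusted p = 0.36). At an unadjusted p under 0.05, 4 endothelial markers were lower (4.26% of all genes) and 0 higher. The part of the number of endothelial cells in it was not tested.

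A microRNA gene was named in each direction, Mir181a-2 lower and Mir1933 higher.
The arrays measured the clusters annotated to the hairpin genes, which does not establish the level of the mature forms. The mature sequences from RefSeq are given with their seed, bases 2 to 8, in capitals. Both arms are shown for each hairpin.
miR-181a-5p: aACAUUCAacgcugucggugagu
miR-181a-2-3p: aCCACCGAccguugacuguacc
miR-1933-5p: aGUCAUGGuguucggucuuaguuu
miR-1933-3p: cCAGGACCaucagugugacuau
The 4 seeds differ from one another. Mir181a-2 was at 6.14, 6.05 and 6.19 in sedentary arrays and at 4.82, 5.28 and 5.18 in exercised arrays (-1.03, SE 0.16, limma adjusted p = 0.00387), and was called in all 12 fits. Mir1933 was at 6.55, 6.34 and 6.38 against 7.75, 8.05 and 7.66 (1.40, SE 0.28, adjusted p = 0.0311), and lost its call without any 1 wild-type array (1.28 to 1.48, up to 0.136).

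The largest fall was that of Rassf9, which encodes a Ras-association protein of endosomes. It was at 5.93, 5.99 and 6.03 in sedentary arrays and at 4.79, 4.51 and 5.03 in exercised arrays, 2.30-fold lower (-1.20, SE 0.14, limma adjusted p = 0.000621). Mylip, a ubiquitin ligase gene, was at 8.02, 7.67 and 7.53 against 6.73, 6.79 and 7.06 (-0.88, SE 0.14, adjusted p = 0.00488). Both were called in all 12 fits with 1 array left out, as was Atrnl1, an attractin-like membrane protein (-0.65, SE 0.10, adjusted p = 0.00429). Acvr2b, a receptor for myostatin and activin, was at 6.40, 6.36 and 6.37 against 5.73, 6.01 and 5.90 (-0.50, SE 0.10, adjusted p = 0.0449). The sedentary values of Acvr2b were almost equal, but its change was small and its call was lost in 10 of the 12 fits (-0.56 to -0.42, up to 0.174), all but those without exercised replicate 2 or knockout exercised replicate 1. Its ligand gene Mstn was not called (adjusted p = 0.964).

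The remaining named falls were the kinase gene Tnk2 (-0.63, limma adjusted p = 0.0262) and the zinc-finger genes Zfp608 (-0.69, adjusted p = 0.0124) and Zfp157 (-0.50, adjusted p = 0.0479), besides Hoxa2. Tnk2 was not called without sedentary replicate 1 or 3 or any exercised array (-0.69 to -0.57, up to 0.15), and Zfp608 not without sedentary replicate 1 or exercised replicate 1 or 2 (-0.73 to -0.62, up to 0.0868). Zfp157 was called only in the fit without sedentary replicate 3 (range -0.57 to -0.43, adjusted p up to 0.236). Hoxa2 was at 4.94, 4.73 and 4.76 in sedentary arrays and at 3.91, 4.05 and 4.32 in exercised arrays. All its exercised values lay below the table median, so its fall rests on dim signal, and with such values set to the median the difference was -0.25 and not called. It was called in only 1 of the 12 fits, that without exercised replicate 3 (range -0.83 to -0.62, up to 0.213).

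Among matrix and signalling proteins secreted by muscle, single genes rose. Adamts9, a protease that cuts proteoglycans, was at 6.24, 6.43 and 6.5 in sedentary arrays and at 7.83, 7.62 and 8.51 in exercised arrays. It rose 3.03-fold (1.6, SE 0.24, limma adjusted p = 0.00408) and was the 1 call among 24 tested genes of its list (median 0.07). Its relative Adamts1 was at 0.33 (adjusted p = 0.731) and Adamts4 was too dim. Ccn2, the connective tissue growth factor, was at 7.49, 7.49 and 7.86 against 8.67, 8.53 and 8.30 (0.89, SE 0.14, adjusted p = 0.0046), 1 call among 24 tested myokine and growth factor genes (median 0.07). A dimmer cluster of Ccn2 changed by 0.18, and with the mean of its clusters it was not called (0.53, adjusted p = 0.383). Musk, a kinase of the nerve-muscle junction, was at 7.82, 8.02 and 8.48 against 8.54, 8.96 and 8.76 (0.65, SE 0.16, adjusted p = 0.11).

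Among cytokines, chemokines and their receptors 1 of 30 tested genes was called, Il6ra, the receptor for interleukin-6. It was at 6.57, 6.17 and 6.37 in sedentary arrays and at 6.98, 6.94 and 7.19 in exercised arrays (0.66, SE 0.12, limma adjusted p = 0.0176), and lost its call without sedentary replicate 2 or 3 or exercised replicate 3 (0.57 to 0.77, up to 0.117). Il6, often induced in working muscle, was too dim to be tested, at 2.37, 2.14 and 2.07 against 2.03, 1.97 and 1.93. Ccl2 had an adjusted p of 0.986. Bdnf and Fgf21 were too dim as well, with no wild-type array above 4.35.

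Genes that make up the muscle itself did not pass at this hour. By limma 0 of 16 fast-fibre contractile genes were called (median -0.01), 0 of 13 slow-fibre genes (0.13), 0 of 16 myogenic and satellite cell genes (-0.01) and 0 of 13 genes of the neuromuscular junction (-0.02). Myod1, the factor that commits cells to muscle, was at 6.92, 7.15 and 6.97 against 6.16, 6.53 and 6.59, without overlap and not called (-0.58, SE 0.14, limma adjusted p = 0.109). The slow-fibre level differed most within the sedentary group, at 0.05, 0.04 and -0.33. Cytosolic ribosomal proteins had 0 of 57 calls by limma and a median of 0.06, and 0 of 24 hypoxia-inducible genes were called (median 0.04). Cholesterol synthesis genes (0 of 20, median 0.09) and interferon-responsive genes (0 of 26, median -0.09) held no call by limma either. At an unadjusted p under 0.05 (3.95% of all genes higher, 4.26% lower), 3 slow-fibre genes were higher and 3 interferon-responsive genes lower. Of the myogenic genes 1 was higher and 3 were lower. At that threshold the fast-fibre list had 0, the ribosomal and cholesterol lists 1 lower gene each, and the neuromuscular and hypoxia lists 1 gene in each direction.

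Markers of other cells held no call by limma apart from Kdr. Of macrophage and leukocyte markers 13 were tested (median 0.06), of fibroblast markers 14 (0.11), of tendon markers 10 (0.03), of adipocyte markers 8 (0.17) and of smooth muscle and pericyte markers 12 (-0.05). The macrophage list lay between -0.16 and 0.09 in sedentary arrays and between -0.01 and 0.11 in exercised arrays. The fibroblast list lay between -0.08 and -0.07 in sedentary arrays and between -0.02 and 0.17 in exercised arrays, without overlap. Of the neutrophil markers 7 were too dim, S100a8 and S100a9 among them, and 3 were tested. Of the red blood cell markers 1 was tested. At an unadjusted p under 0.05 (3.95% of all genes higher, 4.26% lower), 1 macrophage marker was higher and 2 smooth muscle markers were lower. Of the adipocyte markers 2 were higher and 1 lower, and 0 fibroblast or tendon markers passed.

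**Figure D5:**
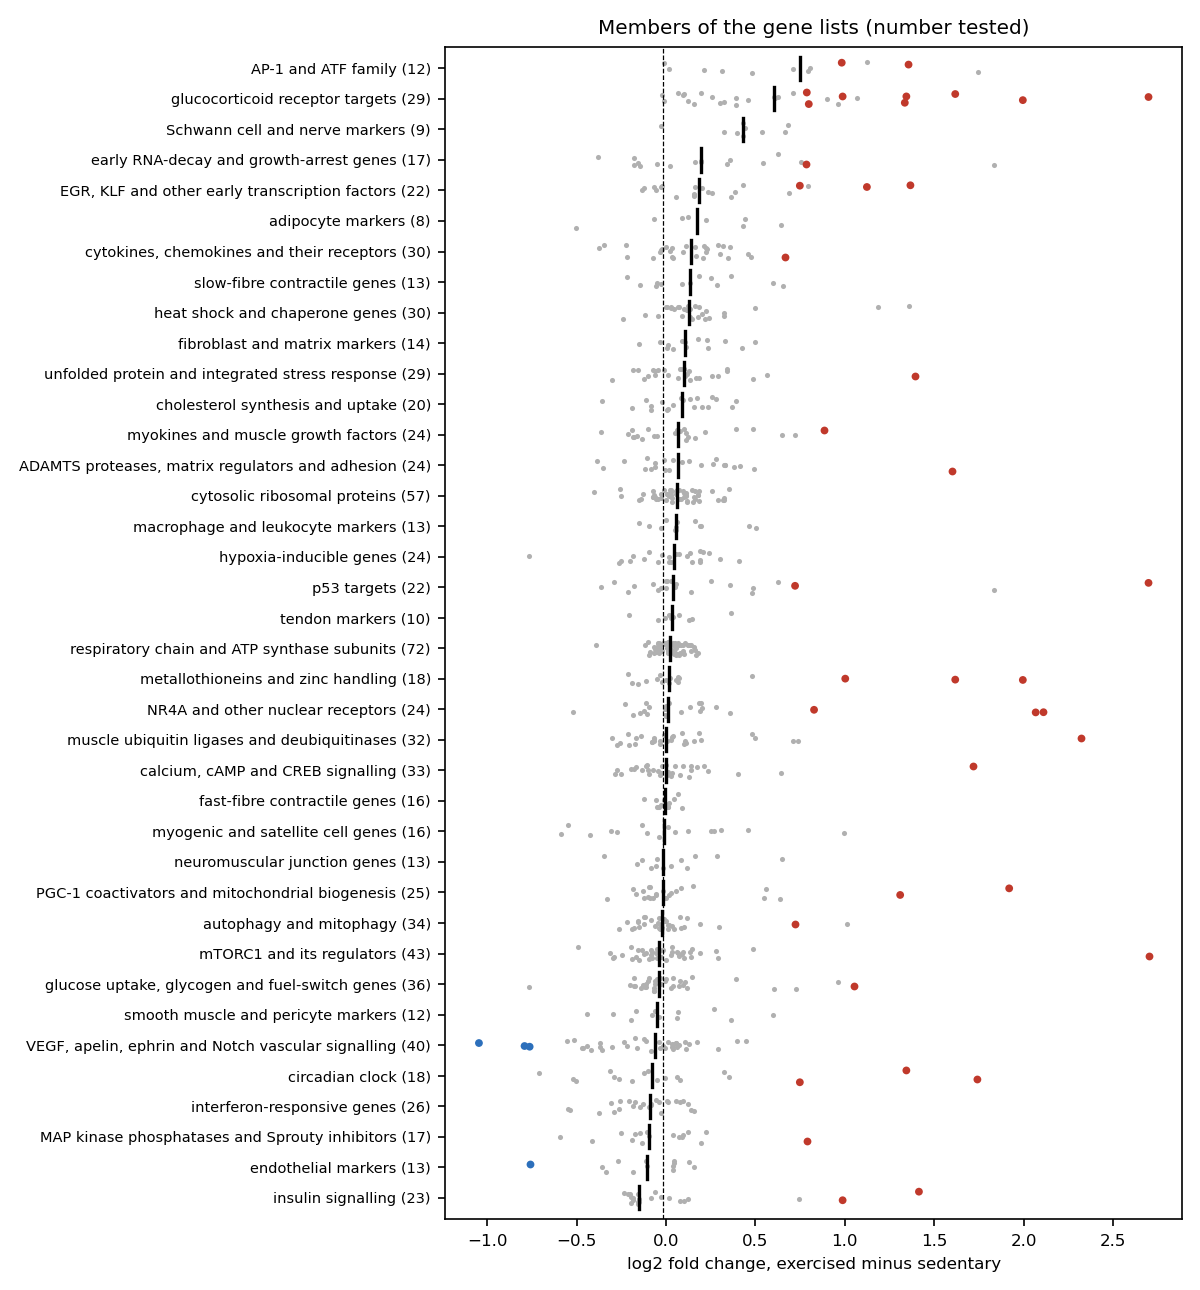
Log2 fold change (exercised minus sedentary) of each tested member of the gene lists, with the number tested in brackets, a black bar for the list's median and a dashed line at the median of all genes tested (-0.02). Called genes are red (higher) or blue (lower), and the glucocorticoid receptor targets (8 called, median 0.60) and the AP-1 and ATF family (2 called, median 0.75) lie furthest to the right.

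Of the calls, 35 rises and 10 falls belonged to no list. Some of the rises are named here after their values were seen. Apbb3, an adaptor protein, was at 5.62, 5.88 and 5.78 in sedentary arrays and at 6.98, 6.95 and 6.97 in exercised arrays, which were nearly equal (1.20, SE 0.11, limma adjusted p = 6.96e-05). Wee1, a kinase that holds back cell division and a clock output, was at 5.15, 5.12 and 5.58 against 6.42, 6.47 and 6.57 (1.20, adjusted p = 0.0021). Slc20a1, a phosphate importer, was at 7.23, 6.81 and 6.88 against 8.10, 8.10 and 8.22 (1.16, adjusted p = 0.00114). All 3 were called in every fit with 1 array left out. Orm1, an acute-phase protein gene, was at 6.18, 6.44 and 6.40 against 7.37, 7.30 and 7.89 (1.18, adjusted p = 0.00155), likewise in every fit. Lncpint, a long noncoding RNA, was at 8.6, 8.31 and 8.95 against 9.54, 9.91 and 9.60 (1.06, adjusted p = 0.00142). Of a different kind were Bcl2l1, an inhibitor of cell death, and Lrrc8a, a subunit of the volume-regulated anion channel, with small but even rises. Bcl2l1 was at 5.85, 5.89 and 5.74 against 6.57, 6.30 and 6.53 (0.64, adjusted p = 0.00678; not called without exercised replicate 3, adjusted p = 0.0501). Lrrc8a was at 7.49, 7.45 and 7.54 against 7.98, 8.01 and 7.99 (0.50, adjusted p = 0.0149), and lost its call without sedentary replicate 1 or 2 or exercised replicate 2 or 3 (0.48 to 0.52, up to 0.0877).

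Across the promoters, the cyclic AMP response element core was common among the risen genes. RefSeq promoters were found for 59 of the 78 called genes, among them 50 of the 65 rises. The core TGACG, on either strand within 250 bases before the start, was present in 28 of the 65 promoters of risen genes (43.1%), in 24.9% of the promoters of all genes tested and in 17.8% of all promoters in the table. These 28 belonged to 23 genes, as a gene can have several promoters (Csrnp1 has 4 with the core). The full element TGACGTCA, which contains the core, was in 4.62% against 2.32% of tested genes' promoters. The E-box CACGTG was in 16.9% against 8.05%, the AP-1 site TGAGTCA in 6.15% against 3.42%, and the metal response element in 32.3% against 29.2%. The EGR site GCGTGGGCG and the CArG box were each in 1 promoter of risen genes (1.54%, against 0.962% and 1.24%). Less frequent in risen genes was the STAT site TTCNNNGAA, in 2 promoters (3.08% against 5.72%). So were the heat shock element unit GAANNTTC, in 2 (3.08% against 4.93%), and the TATA box TATAAA, in 3 (4.62% against 7.27%). The palindromic glucocorticoid response element was in 3 promoters of risen genes (4.62%), those of Mt1 and of Map3k6 and Tinagl1, named after the match was seen, against 0.296%. Of the 10 promoters of fallen genes, 1 held the core, that of Efnb2. These shares describe letters in a short window, were not tested, and draw nothing on the factors.

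In the knockout arrays the difference had the same sign in each of the 78 genes, but it was close to 0 in some, such as Atrnl1 at -0.06 (SE 0.10, limma adjusted p = 0.911) and Acvr2b at -0.07 (SE 0.10, adjusted p = 0.904). The difference of the exercise effects between the genotypes was called by limma for 0 of 13747 genes, at a smallest adjusted p of 0.633, with 620 genes at an unadjusted p under 0.05. No response described above was therefore shown to be particular to wild-type muscle. Otud1 changed by 2.32 in wild type and 2.36 in knockout, Nr4a3 by 2.11 and 2.20 and Ppargc1a by 1.31 and 1.70. The differences with the smallest p were those of Ddit4, at 2.70 in wild type and 1.04 in knockout, and Mt2, at 2.00 and 0.62, both with an adjusted p of 0.633. The Ddit4 signal in the knockout was 5.32, 5.44 and 5.08 in sedentary arrays and 6.46, 5.72 and 6.77 in exercised arrays, without overlap and not called (SE 0.22, limma adjusted p = 0.0679), and exercised replicates 1 and 3 lay above every wild-type sedentary array. Among other genes with a smaller value in the knockout, Per1 was at 1.34 and 0.42, Junb at 0.98 and 0.01 and Mir1933 at 1.40 and 0.12, and these differences were not called.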

How the data were processed

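RNA of 12 plantaris muscles was labelled and hybridised to Affymetrix whole-transcript arrays, per the labels' protocols. The deposited values, read as log2 intensities, are the authors' own, and Partek is the tool in the submitters' processing notes. Background correction, normalization, summarization and the log base are not given in the sources used here. The scale was read as log2 from its range, 0.357 to 13.9, and array medians lay between 4.52 and 4.60.

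Clusters with 1 symbol were kept, and of several clusters for a gene (1082 genes) the one with the highest mean. A model with 1 mean per group was fitted to all 12 arrays (limma 3.58.1, lmFit and eBayes with trend, R 4.3.3) and tested on simulated data. P-values are two-sided and adjusted over 13747 genes (Benjamini-Hochberg). They weigh each difference against a spread that was estimated from all 12 arrays and moderated across genes. The number of arrays limits the precision.

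The 40 gene lists, the named genes (the 20 largest called changes in each direction without predicted models, the called and index genes of each list, and Ddit4) and the comparison itself were chosen with earlier results of these data known. Alternatives changed the samples fitted, moderation, weights, filter, cluster choice and scaling, and left out each array in turn.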

Additional observations from a re-analysis of the deposited data

Results flagged for a closer look

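Transcript clusters without a single gene symbol are outside the comparisons above. When all 22506 clusters above the same filter were tested together (limma), 11 of the 7072 with no symbol were called for exercise in wild type, 8 higher and 3 lower, with log2 fold changes between -1.14 and 1.55. Of the 3 lower clusters, 2 hold identical values. Of the 1048 clusters with several symbols 1 was called, that of Ifi211 and Ifi204, at 6.56, 7.02 and 7.08 in sedentary arrays and at 7.53, 7.74 and 7.93 in exercised arrays (0.84, limma adjusted p = 0.0388). Groups of 3 are too small for a test of single outlying arrays.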

How the results depend on the processing

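The 78 calls (65 higher, 13 lower, 34 at least 2-fold) came to between 64 and 78 with only the wild-type arrays, other priors, filters, cluster choice, scalings or a floor. With all transcript clusters tested together, 60 clusters were called, 48 of them with 1 symbol (41 higher, 7 lower). Without moderation, which tests each gene on its own spread, 12 genes were called (9 higher, 3 lower, 7 at least 2-fold). With array weights, which gave exercised replicate 1 the lowest weight (0.366), 127 were called (106 higher, 21 lower). Leaving out 1 array gave 46 to 90 calls, 37 to 79 higher and 5 to 13 lower. No named gene that was called reversed its direction under these alternatives. Of the 45 named genes called, 27 were called in all 12 fits with 1 array left out, and 31 under all other alternatives apart from no moderation. The cause of these shifts was not tested.

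List medians moved by more than the spread between arrays as follows. With array weights they were 0.12 for nuclear receptors, -0.0654 for insulin signalling, 0.18 for heat shock, 0.13 for p53 targets and -0.16 for endothelial markers. With the mean of clusters it was 0.50 for glucocorticoid receptor targets. Leaving out 1 array gave 0.43 to 0.92 for AP-1, -0.0373 to 0.15 for nuclear receptors, -0.0962 to -0.0033 for MAP kinase phosphatases, -0.183 to -0.0556 for insulin signalling and -0.0687 to 0.0124 for glucose and fuel genes. It gave 0.0665 to 0.19 for heat shock, -0.0601 to 0.0385 for ubiquitin ligases, -0.13 to 0.0155 for the clock, -0.0049 to 0.0593 for hypoxia and 0.0236 to 0.17 for p53 targets. It gave 0.0884 to 0.17 for cytokines, 0.0007 to 0.0895 for myokines, 0.0229 to 0.13 for the ADAMTS list, -0.0269 to 0.24 for slow-fibre genes, -0.15 to -0.0326 for endothelial markers and 0.0153 to 0.19 for macrophage markers. No paired analysis was possible because the labels give no replicate numbers that pair the mice. Genes close to background have only dim signal, and a call missed with 3 arrays a group does not show that a gene kept its level.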
